A study of Mus musculus with 4 samples.

Results

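Transcripts of the aminoacyl-tRNA synthetase genes were followed in RNA that co-purified with a FLAG-tagged mutant of Dis3l2 in mouse embryonic stem cells. The genes were chosen by symbol, from a list of 35 that holds 20 cytosolic enzymes and 15 mitochondrial ones. Of the 35, 34 were found among the 16470 transcripts of the deposited mRNA table, each with 1 transcript, and Yars2 was not analysed here. Lars2, the mitochondrial leucyl-tRNA synthetase, was kept apart as a contrast.

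Aminoacyl-tRNA synthetases join each amino acid to its tRNA and so set which amino acid a codon is read as. They form a pair of structural classes, I and II, with unrelated catalytic folds. Several cytosolic enzymes are held together in the multisynthetase complex, while nuclear genes also encode a set of enzymes that are imported into mitochondria, where they charge the tRNAs made from the mitochondrial genome. Many cytosolic synthetase genes belong to the response to amino acid shortage that is driven by the transcription factor ATF4. Dis3l2 degrades RNA whose tail carries added uridines, working inward from the 3′ end.

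The cells were of the C57BL/6 strain, at passages 25-30, grown without feeder cells on gelatin in medium with LIF and serum. The 4 libraries were an anti-FLAG immunoprecipitate (IP) of cells transfected with FLAG-tagged mutant Dis3l2, the same IP of mock-transfected cells, and the input RNA of the mutant-transfected and of the mock-transfected cells. The labels do not name the mutation, the promoter of the construct or the share of cells that took it up. Ribosomal RNA was depleted from the inputs; no such step is described for the IPs. With 1 library per group no difference below has a replicate check, and no p-value is given.

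Depth differed strongly between IP and input. The mRNA table held 2275647 reads in the mutant IP, against 1860030 in the mock IP, and 307324 reads in the mutant input, against 291175 in the mock input. Dis3l2 itself, a check of the labels, had 127 reads in the mutant IP, against 21 in the mock IP, and a ratio of 5.6 (3.51 to 9.36), with 7 reads in the mutant input, against 3 in the mock input. Lars2 alone took 52% of the mutant IP, 58.6% of the mock IP, 33.3% of the mutant input and 34.8% of the mock input. The origin of the reads assigned to Lars2 is unsure and was not tested. All 10 stem cell markers examined were in the table, with 3632 reads in the mutant IP, against 2424 in the mock IP. Of 7 fibroblast markers 3 were in the table, with 99 reads in the mutant IP, against 27 in the mock IP, and 16 and 10 reads in the mutant and mock inputs. The endoderm, mesoderm and ectoderm markers together stayed between 11 and 85 reads per list in each IP, and Mixl1, a mesoderm marker, had 0 reads in every library. The fibroblast sum was 3.40-fold higher in the mutant IP (2.20 to 5.41). It came from Col1a1 (73 reads, against 23) and Thy1 (26, against 3), while Col1a2 had 0 reads, against 1. The stem cell sum, 1.39-fold (1.32 to 1.46), and that of all transcripts without Lars2, 1.31-fold, were also higher there. The fibroblast sum goes the same way as the synthetases that were higher in the mutant IP, and its part in them was not tested.

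All 34 synthetase transcripts were read in both IPs, but many were not read in the inputs. A transcript had 1 to 380 reads in the mutant IP, with a median of 75, and 1 to 511 reads in the mock IP, with a median of 58. The median was 4.5 reads in the mutant input and 5 reads in the mock input. In the mutant input 7 of the 34 had 0 reads and in the mock input 13 had 0 reads, and 6 had none in either. Values between the IPs are therefore the better measured ones.

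**Figure D1:**
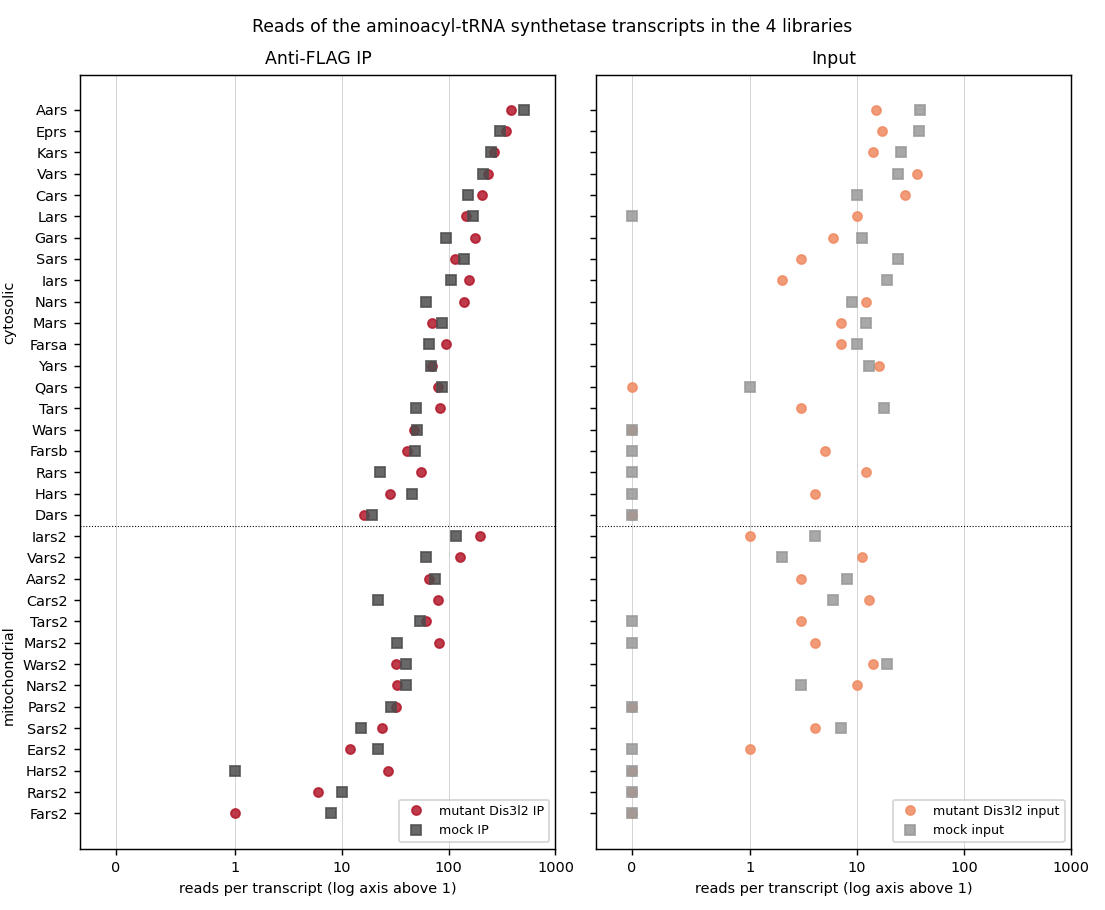
Reads of each of the 34 synthetase transcripts in the mutant Dis3l2 IP (red circles) and the mock IP (dark squares), left, and in the mutant input (orange circles) and mock input (grey squares), right, on an axis that is logarithmic above 1 read. Aars has the most reads in both IPs, Fars2 has 1 read in the mutant IP, Hars2 has 1 read in the mock IP, and 13 transcripts lie at 0 in the mock input.

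The mutant IP was set against the mock IP, which measures what the anti-FLAG gel retains without the tagged protein. The median synthetase transcript had equal values in both IPs, while the median transcript of the table was higher in the mutant IP. The deposited values are reads divided by a factor for each library, and ratios below are ratios of these values. Log2 ratios, and all counts at least 2-fold or 4-fold apart, were taken after adding a pseudocount of 1 to each value, which pulls transcripts with few reads toward 0, while single ratios with an interval have none. The median log2 ratio of the 34 transcripts was 0.00, against 0.38 for all 14273 transcripts with a value of at least 1 in either IP. Of the 34, 12 lay above the median of all transcripts. In bulk RNA, fewer cells that hold a transcript and less of it per cell cannot be told apart.

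Few of them passed a 2-fold difference. Of the 34, 5 were at least 2-fold higher in the mutant IP (14.7%), while 28.8% of all transcripts were. Fars2 alone was at least 2-fold lower (2.94%), while 15% of all transcripts were. Hars2 alone was at least 4-fold higher, against 10.1% of all transcripts, and 0 were at least 4-fold lower, against 5.74%. Fars2, with 9 reads over both IPs, had a log2 ratio of -1.62 with the pseudocount, and its ratio without one was 0.116. Among transcripts with at least 20 reads over both IPs, 5 of 32 synthetases were at least 2-fold higher, against 23.8% of all, and 0 were at least 2-fold lower, against 7.72%. With library totals made equal without Lars2, 2 of the 34 were at least 2-fold higher and 3 at least 2-fold lower, against 21.2% and 19.1% of all transcripts.

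The summed value of the synthetases exceeded that in the mock IP by less than the summed value of all transcripts did. The ratio was 1.07 for the 34 synthetases (1.01 to 1.12) and 1.31 for the table without Lars2 (1.31 to 1.32). The 34 transcripts had 3530 reads in the mutant IP, against 3069 in the mock IP. As a share of the mRNA table without Lars2, that was 0.323% in the mutant IP (exact 95% interval 0.312 to 0.334) and 0.398% in the mock IP (0.384 to 0.413), a ratio of shares of 0.811 (0.772 to 0.851). With Lars2 in the total, the shares were 0.155% in the mutant IP, against 0.165% in the mock IP. Aars carried part of this: without it the ratio of shares was 0.868 (0.824 to 0.915). All intervals here describe the error of counting alone, because each group has 1 library. Reads copied by PCR do not each stand for a molecule, so the intervals may be too narrow even for that error.

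**Figure D2:**
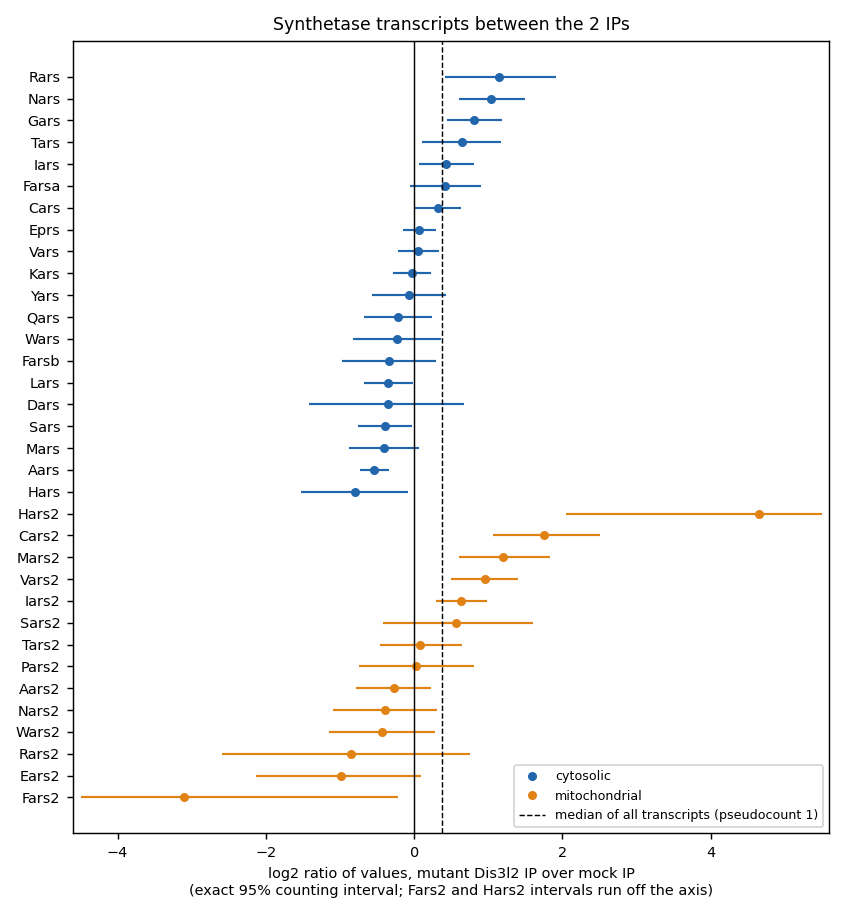
Log2 ratio of values, mutant Dis3l2 IP over mock IP, for the 20 cytosolic (blue, upper block) and 14 mitochondrial (orange, lower block) synthetases, with exact 95% counting intervals; the solid line marks 0 and the dashed line the median of all transcripts, 0.38. The intervals of 16 of the 34 lie entirely below the median of all transcripts and those of 7 entirely above it.

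Set against the median of all transcripts, the intervals of 16 of the 34 synthetases (47.1%) lay entirely below it, and those of 7 (20.6%) entirely above it. Over all transcripts 25.1% lay entirely below and 25.8% entirely above. Against equal values in both IPs, 5 of the 34 intervals lay below a ratio of 1, against 15.5% of all transcripts, and 11 lay above it, against 39.9%. The other 18 held it.

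Among cytosolic enzymes the summed value was nearly equal in both IPs. The 20 transcripts summed to a value of 1018 in the mutant IP, against 1017 in the mock IP, and a ratio of 1.0 (0.948 to 1.06). Their median log2 ratio was -0.05, with a range from -0.74 to 1.07. Of the 20, 2 were at least 2-fold higher in the mutant IP (10%), against 28.8% of all transcripts. At least 2-fold lower were 0, against 15%, and 6 lay above the median of all transcripts. All 20 had at least 20 reads over both IPs, and at that limit 23.8% of all transcripts were higher and 7.72% lower. These shares fell further with depth, to 20.5% higher and 2.84% lower at 100 to 199 reads, and 6.1% and 0% at 400 to 999. The low counts were therefore not set apart from depth.

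Aars, which charges tRNA with alanine and is a class II enzyme, had 380 reads in the mutant IP, against 511 in the mock IP. Its ratio was 0.689 (0.601 to 0.788), the lowest among the synthetases with at least 100 reads. Of the 656 transcripts with 400 to 999 reads over both IPs, 0.915% had a log2 ratio as low as that of Aars. It was the only synthetase for which under 5% of equally covered transcripts were as low.

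Hars, the histidine enzyme, had 28 reads in the mutant IP, against 45 in the mock IP, and a ratio of 0.576 (0.346 to 0.944). Sars, the serine enzyme, had 115 reads in the mutant IP, against 140 in the mock IP, and a ratio of 0.761 (0.589 to 0.980). Lars, the cytosolic leucine enzyme, had 145 reads in the mutant IP, against 171 in the mock IP, and a ratio of 0.785 (0.625 to 0.985). These ratios were below 1 by more than counting error, but 13.1%, 7.52% and 8.76% of equally covered transcripts were as low as Hars, Sars and Lars. Mars, the methionine enzyme, was in the same range at 0.754, with an interval of 0.542 to 1.05.

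Other well covered cytosolic synthetases had nearly equal values. Eprs, a fused enzyme that charges both glutamate and proline tRNAs, had 344 reads in the mutant IP, against 303 in the mock IP, and a ratio of 1.05 (0.898 to 1.23). Kars, the lysine enzyme of both cytosol and mitochondria, had 267 reads in the mutant IP, against 252 in the mock IP, and a ratio of 0.981 (0.823 to 1.17). Vars, the valine enzyme, had 235 reads in the mutant IP, against 209 in the mock IP, and a ratio of 1.04 (0.860 to 1.26). The intervals of Eprs, Kars and Vars lay below the fold of the median transcript. Cars, the cysteine enzyme, lay close to that median, with 206 reads in the mutant IP, against 153 in the mock IP, and a ratio of 1.25 (1.01 to 1.55).

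A few cytosolic synthetases were higher in the mutant IP. Rars, the arginine enzyme, had 55 reads in the mutant IP, against 23 in the mock IP, and a ratio of 2.21 (1.34 to 3.78). Nars, the asparagine enzyme, had 138 reads in the mutant IP, against 62 in the mock IP, and a ratio of 2.06 (1.52 to 2.83). Gars, the glycine enzyme of both compartments, had 178 reads in the mutant IP, against 94 in the mock IP, and a ratio of 1.75 (1.36 to 2.28). Such ratios were common at their depth: 25.4% of transcripts with 50 to 99 reads were as high as Rars, and 11.4% and 21% of those with 200 to 399 reads were as high as Nars and Gars.

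The remaining cytosolic transcripts lay between 0.780 for Dars, the aspartate enzyme with 16 reads in the mutant IP, against 19 in the mock IP, and 1.56 for Tars, the threonine enzyme with 84 and 50 reads. Farsa and Farsb encode the subunits of the same phenylalanine enzyme. Farsa had 94 reads in the mutant IP, against 65 in the mock IP, and Farsb 41, against 48, which gave ratios of 1.34 (0.966 to 1.87) and 0.791 (0.508 to 1.23). The intervals of the subunits overlapped.

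Enzymes inside and outside the multisynthetase complex had similar medians and sums. Of the complex, 8 enzymes (Dars, Eprs, Iars, Kars, Lars, Mars, Qars and Rars) had a median log2 ratio of -0.12, and the 12 cytosolic enzymes outside it a median of 0.00. The summed values gave a ratio of 1.0 inside the complex (0.920 to 1.09) and of 1.0 outside it (0.932 to 1.07). Rars was the only member of the complex at least 2-fold higher in the mutant IP (12.5%), against 28.8% of all transcripts. Of the 8, 0 were at least 2-fold lower, against 15%. All 8 had at least 20 reads over both IPs, and at that limit 23.8% of all transcripts were higher and 7.72% lower. Split by structural class, the 17 class I transcripts had a median of 0.06 and the 17 class II transcripts a median of -0.03. Here and below the fused enzyme Eprs was counted wholly in class I, while the mitochondrial proline enzyme was counted in class II. The summed value ratio was 1.15 for class I (1.08 to 1.23) and 0.974 for class II (0.908 to 1.05), and class II includes Aars.

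Mitochondrial enzymes were spread more widely, and their sum was higher in the mutant IP. The 14 transcripts summed to 782 reads in the mutant IP, against 527 in the mock IP, and their values to a ratio of 1.37 (1.23 to 1.54). As a share of the table without Lars2 it was 1.05 times the mock share (0.935 to 1.17), an interval that held 1. Their median log2 ratio was 0.06, with a range from -1.62 to 2.97. Of the 14, 3 were at least 2-fold higher (21.4%), against 28.8% of all transcripts, and 1 was at least 2-fold lower (7.14%), against 15%. Among those with at least 20 reads over both IPs, 3 of 12 were at least 2-fold higher (25%), against 23.8% of all transcripts. At least 2-fold lower were then 0, against 7.72%.

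Hars2, the mitochondrial histidine enzyme, had 27 reads in the mutant IP, against 1 in the mock IP, and a ratio of 25 with an interval of 4.12 to 1024. Cars2, for cysteine, had 80 reads in the mutant IP, against 22 in the mock IP, and a ratio of 3.37 (2.08 to 5.67). Mars2, for methionine, had 82 reads in the mutant IP, against 33 in the mock IP, and a ratio of 2.30 (1.52 to 3.56). At their depths, 8.48% of transcripts were as high as Hars2, 5.18% as high as Cars2 and 15.9% as high as Mars2. No synthetase was so high that under 5% of equally covered transcripts matched it.

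Vars2, for valine, had 129 reads in the mutant IP, against 62 in the mock IP, and a ratio of 1.93 (1.41 to 2.65). Iars2, for isoleucine, was the best covered mitochondrial member, with 196 reads in the mutant IP, against 117 in the mock IP, and a ratio of 1.55 (1.23 to 1.97). Both ratios lay above 1 by more than counting error, and the interval of Vars2 also lay above the median of all transcripts.

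At the low end, Fars2, the mitochondrial phenylalanine enzyme, had 1 read in the mutant IP, against 8 in the mock IP, and a ratio of 0.116 with an interval of 0.00261 to 0.863. Ears2, for glutamate, had 12 reads in the mutant IP, against 22 in the mock IP, and a ratio of 0.505 (0.228 to 1.07). Wars2, for tryptophan, had 32 reads in the mutant IP, against 40 in the mock IP, and a ratio of 0.741 (0.450 to 1.21). A difference of Ears2 or Wars2 between the IPs was not detectable at this depth. The other mitochondrial enzymes ran from 0.556 for Rars2, with 6 reads in the mutant IP, against 10 in the mock IP, to 1.48 for Sars2, with 24 and 15 reads, and each of their intervals held 1.

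Hars and Hars2 are neighbours in the RefSeq gene table of assembly GRCm38, with 0 protein-coding genes between them, and their ratios lay on opposite sides of 1. Whether counting used the strand is not stated, so reads of neighbouring transcripts that overlap could not be told apart.

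**Figure D3:**
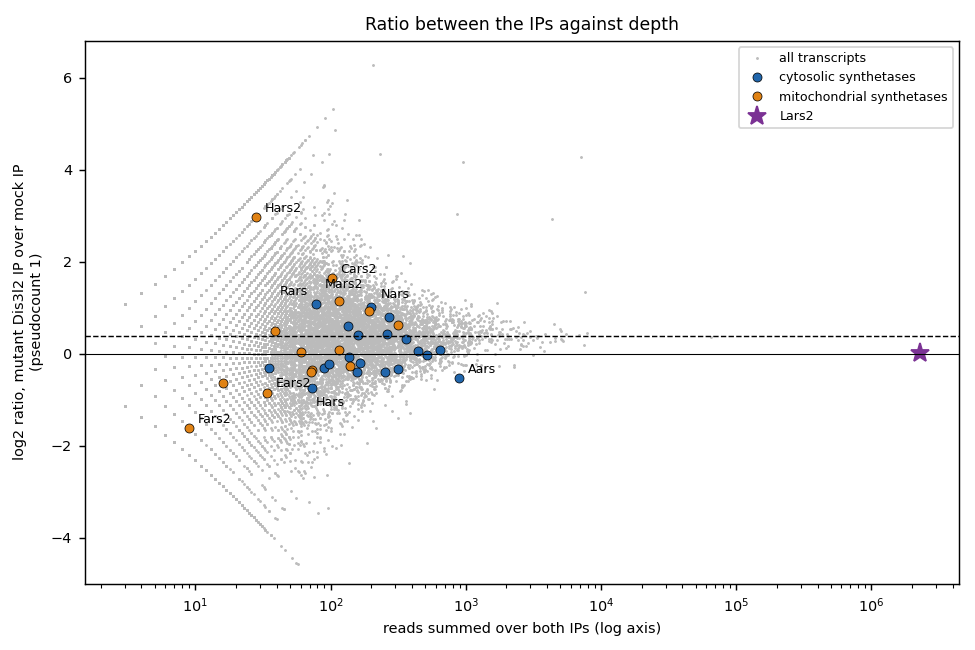
Log2 ratio of mutant Dis3l2 IP over mock IP (pseudocount 1) against the reads summed over both IPs (log axis), for all 14273 transcripts (grey), cytosolic synthetases (blue), mitochondrial synthetases (orange) and Lars2 (purple star); the dashed line is the median of all transcripts. The grey cloud narrows with depth, and Aars lies at its lower edge at 891 reads, while Hars2 and Cars2 lie inside it.

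The spread between the IPs depended on depth far beyond the synthetases. Of all transcripts with 20 to 49 reads, 47.7% were at least 2-fold apart in either direction. The share was 36.3% at 50 to 99 reads, 23.3% at 100 to 199, 12.8% at 200 to 399 and 6.1% at 400 to 999 reads. The synthetases at least 2-fold apart had 9 reads (Fars2), 28 (Hars2), 78 (Rars), 102 (Cars2), 115 (Mars2) and 200 reads (Nars) over both IPs, and 0 of the 4 with at least 400 reads were 2-fold apart.

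Lars2 had 1182576 reads in the mutant IP, against 1089665 in the mock IP, and a log2 ratio of 0.01. This lay close to the synthetase median of 0.00 and below the median of all transcripts. Of the 189 transcripts with at least 1000 reads over both IPs, 7.41% were as low as Lars2. No other transcript was covered as deeply as Lars2. Whether its reads came from Lars2 mRNA was not tested, so its ratios describe the reads assigned to that symbol.

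IP was set against input within each condition to see how far the gel retained synthetase transcripts, with and without the tagged protein. They were higher in IP than in input in both conditions. In the mutant the median log2 ratio was 2.87 over 33 measured synthetases, against 2.44 for all 13637 measured transcripts. In the mock it was 3.0 over 33, against 2.32 for all 13111. Most of this distance went with depth. Among transcripts with at least 20 reads over IP and input, the median in the mutant was 3.11 over 30 synthetases, against 3.07 for all. The mock medians were then 3.08 over 30 synthetases, against 3.02 for all. At least 2-fold higher were 32 of 33 in the mutant, against 81.5% of all transcripts, and 31 of 33 in the mock, against 82.3%. The 2 others in the mock, Sars2 and Wars2, had log2 ratios of 0.88 and 0.98 with the pseudocount and ratios of 2.14 and 2.11 without it. At least 4-fold higher were 24 of 33 in the mutant, against 61.1%, and 29 of 33 in the mock, against 60.6%. In both conditions 0 were at least 2-fold lower, against 7.24% of all transcripts in the mutant and 6.67% in the mock. The all-transcript medians show that IP values as a whole were larger than input values, so a ratio above 1 does not set synthetases apart.

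The summed values gave similar IP over input ratios with and without the tagged protein. They were 9.02 (7.95 to 10.3) in the mutant and 10.1 (9.0 to 11.4) in the mock. As shares of the table without Lars2, the ratios were 2.54 (2.24 to 2.89) in the mutant and 2.5 (2.22 to 2.82) in the mock. The mutant and mock intervals overlapped on both scales. For the reads assigned to Lars2 the IP over input ratio was 7.7 in mutant cells (7.65 to 7.75) and 10.7 in mock cells (10.7 to 10.8).

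Single transcripts were ranked among those with at least 20 reads over IP and input. In the mutant, Iars2 was highest, with 196 reads in the IP, against 1 in the input, a ratio of 131 with an interval of 23.2 to 5187. Iars, the cytosolic isoleucine enzyme, followed among those with input reads, with 155 reads in the IP, against 2 in the input, a ratio of 51.7 (14.1 to 430). Qars, for glutamine, had 80 reads in the mutant IP, against 0 in the input, and Wars, for tryptophan, had 47, against 0, at least 17.8- and 10.4-fold higher against a floor of 3 reads. The ratios of these transcripts rest on 0 to 2 input reads each.

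In the mock, Lars had 171 reads in the IP, against 0 in the input, at least 57-fold higher. Qars had 86 reads in the IP, against 1, a ratio of 86 with an interval of 15 to 3436. Tars2, for threonine in mitochondria, had 54 reads in the IP, against 0, and Wars 51, against 0, at least 18- and 17-fold higher. Qars and Wars were thus among the highest in both conditions.

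The lowest IP over input ratios included Wars2 in both conditions. Wars2 had 32 reads in the mutant IP, against 14 in the mutant input, a ratio of 1.52 (0.790 to 3.09), and 40 reads in the mock IP, against 19 in the mock input, a ratio of 2.11 (1.19 to 3.85). Nars2, for asparagine in mitochondria, had a ratio of 2.20 (1.06 to 5.0) in the mutant, and Yars, for tyrosine, 2.92 (1.68 to 5.38). Rars was at 3.06 (1.62 to 6.27) in the mutant. In the mock, Sars2, for serine in mitochondria, was at 2.14 (0.822 to 6.21), Tars at 2.78 (1.59 to 5.06) and Cars2 at 3.67 (1.44 to 11.1). With library totals made equal without Lars2, all 4 of these in each condition lay below their inputs. The log2 ratios were then -1.11 for Wars2, -0.62 for Nars2, -0.27 for Yars and -0.20 for Rars in the mutant. In the mock they were -0.87 for Wars2, -0.74 for Sars2, -0.50 for Tars and -0.12 for Cars2.

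**Figure D4:**
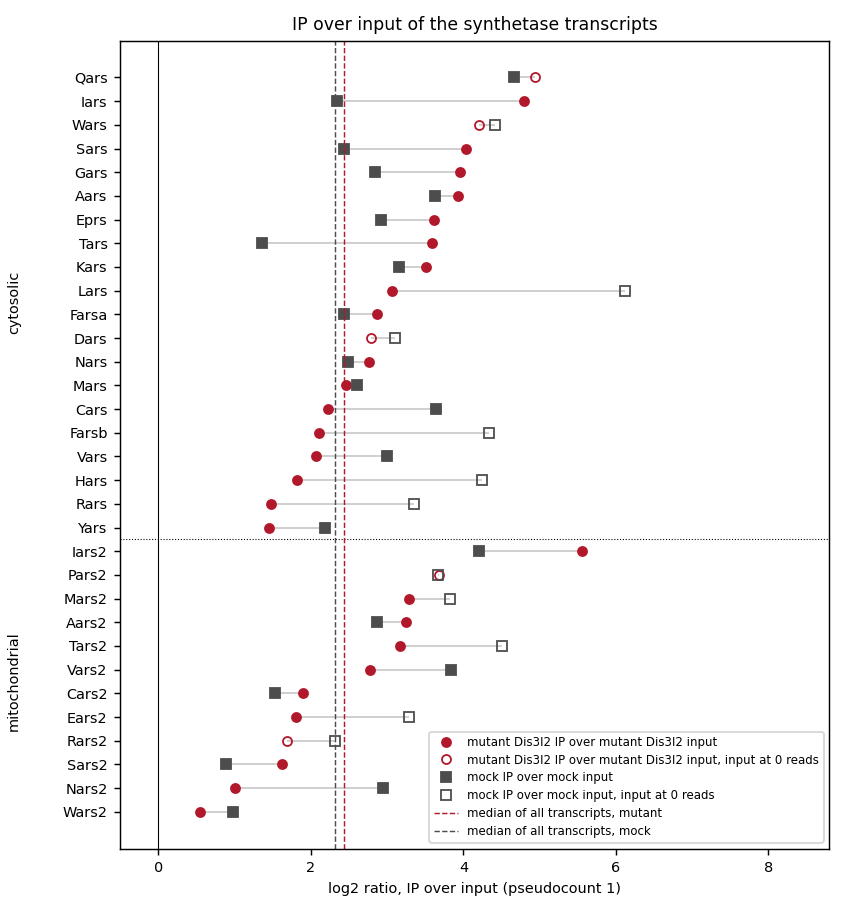
Log2 ratio of IP over input (pseudocount 1) for synthetases measured in both conditions, in mutant Dis3l2 cells (red circles) and mock cells (dark squares), with open symbols where the input had 0 reads; dashed lines mark the medians of all transcripts, 2.44 in the mutant and 2.32 in the mock. Wars2 lies left of both medians, and the widest gaps (Lars, Iars, Hars, Farsb and Tars) belong to transcripts with 0 to 3 reads in 1 of the inputs.

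The mutant input was set against the mock input to see whether synthetase transcripts differed before the IP. They had a slightly larger summed value in the mutant input and a smaller share of its reads. The 34 transcripts had 261 reads in the mutant input and 303 in the mock input, a ratio of values of 1.2 (1.01 to 1.42). As a share of the table without Lars2 they made up 0.127% of the mutant input (0.112 to 0.144) and 0.160% of the mock input (0.142 to 0.179), a ratio of shares of 0.798 (0.673 to 0.944). The values of all transcripts without Lars2 summed to 1.5 times as much in the mutant input. Without Aars the ratio of shares was 0.863 (0.722 to 1.03), which held 1.

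Of 26 synthetases measured between the inputs, 10 were at least 2-fold higher in the mutant input (38.5%), against 37% of 9367 transcripts. At least 2-fold lower were 3 (11.5%), against 21.8% of all transcripts. The median log2 ratio was 0.35, against 0.51 for all. Most of this rests on few reads, since 7 synthetases had reads in the mutant input and 0 in the mock input. Among the 11 with at least 20 input reads, 1 was at least 2-fold higher and 3 were at least 2-fold lower, against 24.9% and 7.44% of all transcripts. Vars lay just under the limit, with a log2 ratio of 0.99.

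The 3 lower ones were Iars, Sars and Tars. Iars had 2 reads in the mutant input, against 19 in the mock input, a ratio of 0.146 (0.0165 to 0.606). Sars had 3 reads in the mutant input, against 24 in the mock input, a ratio of 0.174 (0.0335 to 0.572). Tars had 3 reads in the mutant input, against 18 in the mock input, a ratio of 0.231 (0.0437 to 0.793). Between the IPs the same transcripts gave ratios of 1.35, 0.761 and 1.56, so the inputs and the IPs differed in size or direction for each.

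Cars was the highest of the better covered transcripts, with 28 reads in the mutant input, against 10 in the mock input, a ratio of 3.89 (1.83 to 8.97). Vars had 36 reads in the mutant input, against 24 in the mock input, a ratio of 2.08 (1.21 to 3.65). Aars had 15 reads in the mutant input, against 39 in the mock input, a ratio of 0.534 (0.274 to 0.991). Aars was thus lower in the mutant in both the IP and the input. Lars and Rars, with 10 and 12 reads in the mutant input, had 0 in the mock input and were at least 4.63- and 5.56-fold higher against the floor. By class, the summed input values gave 1.61 for class I (1.29 to 2.02) and 0.797 for class II (0.607 to 1.04).

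The specific IP enrichment divides IP over input in the mutant by IP over input in the mock. It was near 0 on the log2 scale for the synthetases as a group, with a median of -0.18 over 34, against 0.13 for all 15060 transcripts. At least 2-fold higher were 6 of 34 (17.6%), against 31.5% of all transcripts, and at least 2-fold lower were 10 (29.4%), against 26.6%. At 4-fold, 3 were higher, against 13.8% of all, and 3 were lower, against 10.6%.

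Only 7 synthetases had at least 10 reads in all 4 libraries, which an interval for this ratio required. Cars had a log2 enrichment of -1.64 (-2.73 to -0.56) and Vars one of -1.0 (-1.79 to -0.21), both computed without a pseudocount. Aars had 0.37 (-0.51 to 1.25), Eprs 0.76 (-0.10 to 1.61) and Kars 0.39 (-0.58 to 1.36). Yars had -0.84 (-2.0 to 0.32) and Wars2 -0.47 (-1.67 to 0.73). Cars and Vars were below 0 by more than counting error, with larger input values in the mutant, while the intervals of the other 5 held 0.

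With a pseudocount of 1, the highest specific enrichments were 2.97 for Hars2, 2.46 for Iars, 2.23 for Tars and 1.60 for Sars. Hars2 had 0 reads in both inputs, so its value adds nothing to the ratio between the IPs, and those of Iars, Tars and Sars rest on 2 or 3 mutant input reads. At the low end were -3.06 for Lars, -2.43 for Hars, -2.24 for Farsb and -1.94 for Nars2. Lars, Hars and Farsb had 0 reads in the mock input, and Nars2 had 3.

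Other genes of the pathway were examined by list. Partners of the synthetases are scaffold proteins of the complex, editing factors that remove wrong amino acids from tRNA, and the amidotransferase that makes mitochondrial glutaminyl-tRNA. Of 12 partner symbols listed 11 were measured, and the other, Gatb, is a newer symbol of the measured Pet112. The median log2 ratio of mutant IP over mock IP was 0.10. At least 2-fold higher were 4 (36.4%), against 28.8% of all transcripts, and at least 2-fold lower were 3 (27.3%), against 15%. Aarsd1, an editing factor for mischarged alanine tRNA, had 49 reads in the mutant IP, against 5 in the mock IP, and a ratio of 9.07 (3.64 to 29.2). Dtd2, another editing factor, had 16 reads in the mutant IP, against 43 in the mock IP, and a ratio of 0.345 (0.181 to 0.624). Partners thus lay on both sides of 1.

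Genes that mature and modify tRNA had a median of 0.22 over 30 measured of 33, with 9 at least 2-fold higher (30%, against 28.8% of all transcripts) and 3 at least 2-fold lower (10%, against 15%). Nsun2, which methylates cytosine in tRNA, had 232 reads in the mutant IP, against 149 in the mock IP, and a ratio of 1.44 (1.17 to 1.78). Adat1, a tRNA adenosine deaminase, was at 1.28 (1.01 to 1.64), and Xpot, which exports tRNA from the nucleus, at 0.884 (0.687 to 1.14). Pus3, a pseudouridine synthase, had a log2 ratio past 4-fold, with 32 reads in the mutant IP, against 5 in the mock IP, and a ratio of 5.93 (2.29 to 19.5).

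Genes of the amino acid response had a median of 0.18 over 20 measured of 23, with 4 at least 2-fold higher (20%, against 28.8% of all transcripts) and 1 at least 2-fold lower (5%, against 15%). Slc7a5 and Slc3a2, the chains of a transporter of large neutral amino acids, were at 1.44 (1.28 to 1.61) and 1.88 (1.57 to 2.26). Ddit4, an inhibitor of mTORC1 signalling, had 115 reads in the mutant IP, against 162 in the mock IP, and a ratio of 0.657 (0.513 to 0.840). Ddit3, the transcription factor CHOP, had 53 reads in the mutant IP, against 9 in the mock IP, and a ratio of 5.45 (2.67 to 12.6). The medians of all 3 lists lay between that of the synthetases, 0.00, and that of all transcripts, 0.38, and the differences between lists were not tested. With at least 20 reads over both IPs this no longer held for the partners, whose median was 0.39 over 10, against 0.39 for all transcripts. The medians were then 0.31 for tRNA maturation, 0.23 for the amino acid response and 0.04 for the synthetases.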

How the data were processed

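RNA of 4 libraries was sequenced, 1 per group. Reads were aligned with Bowtie to mm9, per the submitters' processing notes; how reads were then counted, with or without strand, is not stated there. The deposited unit is a signal per transcript and library. For mRNA and noncoding RNA, 100% of values were whole reads, within 0.02 reads, divided by 1.8 (mutant input), 2.5 (mock input), 2.7 (mutant IP) or 2.5 (mock IP); no source explains these divisors. Values were not divided by transcript length, so levels were not compared between genes. Each of the 16470 symbols has 1 transcript, and 26 symbols turned into dates were restored by accession.

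Log2 ratios were computed over the whole mRNA table with a pseudocount of 1, among transcripts with a value of at least 1 in any library of the ratio. Ratios of 2 libraries have exact conditional binomial 95% intervals, shares have exact Clopper-Pearson intervals, and the ratio of ratios has a log-normal interval where all libraries hold at least 10 reads. They compare libraries, not conditions. Where a library had 0 reads, the fold is a bound against 3 reads per library, worth 1.11 in the mutant IP, 1.2 in the mock IP, 1.67 in the mutant input and 1.2 in the mock input. Members, lists and rules were chosen with earlier results of these data known. The text names the 6 synthetases with the highest mean value, the 4 highest and 4 lowest per ratio with at least 20 reads, and, of each other list, the 3 with the highest mean and any at least 4-fold apart between the IPs with 20 reads; any other synthetase or marker named was chosen after its values were seen. Of the genes this rule names, 1 is not reported here. The computation was tested on simulated data and run in Python 3.11.15 with numpy 2.4.6, pandas 2.3.3 and scipy 1.17.1.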

Additional observations from a re-analysis of the deposited data

Results flagged for a closer look

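Outside the mRNA table, the mitochondrial tRNAs with reads in an IP had more reads in the mutant IP than in the mock IP. All noncoding transcripts together had 3183346 reads in the mutant IP, against 2157604 in the mock IP. The noncoding table lists 6 mitochondrial tRNA genes, the substrates of mitochondrial synthetases, and 2 of them had a read in an IP. The serine tRNA mt-Ts1 had 45 reads in the mutant IP, against 14 in the mock IP, and a ratio of 2.98 (1.60 to 5.87), and 0 reads in both inputs. The leucine tRNA mt-Tl1 had 6 reads in the mutant IP, against 0 in the mock IP, at least 1.85-fold higher against a floor of 3 reads, with 3 reads in each input.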

How the results depend on the processing

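No paired analysis was possible because each group has 1 library and no replicate numbers; for the same reason no library could be left out. Summing all transcripts of a gene was not run, since each symbol has 1. Between the IPs, the median of the 34 synthetases was -0.38 with each library centred on its median and -0.38 with equal totals without Lars2, where the median of all transcripts was 0.01 and 0.02. Such a scaling shifts all transcripts nearly alike, so it says nothing about their distance from each other. The count at least 2-fold higher was 2 with a pseudocount of 5, with centring and with either equal total. Of all transcripts, 13% were higher with a pseudocount of 5, 21.1% with centring, 25.3% with equal totals and 21.2% without Lars2 in them. The count at least 2-fold lower was 0 with a pseudocount of 5, a minimum value of 5, at least 20 reads or without Hars2 and Fars2, 3 with centring or equal totals without Lars2, and 2 with equal totals. Of all transcripts, 4.38% were lower with a pseudocount of 5, 9.73% with a minimum value of 5 and 7.72% with at least 20 reads. Without Hars2 and Fars2 the share was 15%. It was 19.2% with centring, 19.1% with equal totals without Lars2 and 16.7% with equal totals. The limit of 20 reads and the removal of Hars2 and Fars2 were chosen after seeing the data.

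Ratios of IP over input depended most on how libraries were scaled. In the mutant, centring gave a median of 0.95 with 16 higher and 2 lower, equal totals 1.0 with 16 higher and 2 lower, and equal totals without Lars2 1.36 with 21 higher and 1 lower; the medians of all transcripts were 0.94, 1.0 and 1.3. In the mock, a pseudocount of 5 gave a median of 2.01, centring 1.23 with 18 higher and 2 lower, equal totals 1.02 with 17 higher and 3 lower, and equal totals without Lars2 1.39; the medians of all transcripts were 1.19, 0.94, 0.84 and 1.17. Of all transcripts in the mutant, 47.7%, 50.1% and 57.4% were at least 2-fold higher with centring, equal totals and equal totals without Lars2. The shares at least 2-fold lower were 19%, 17.5% and 14.1%. In the mock, 49.3% were higher and 17.2% lower with centring, and 44.8% and 19.2% with equal totals. Some of the 25 synthetases named by rule lay below input under scaling. In the mutant with centring these were Cars (-0.21), Cars2 (-0.44), Farsb (-0.05), Hars (-0.24), Nars2 (-1.22), Rars (-0.83), Sars2 (-0.41), Vars (-0.38), Wars2 (-1.71) and Yars (-0.91). With equal totals they were Cars (-0.01), Cars2 (-0.25), Hars (-0.07), Nars2 (-1.04), Rars (-0.64), Sars2 (-0.25), Vars (-0.18), Wars2 (-1.53) and Yars (-0.71), and without Lars2 in the totals Nars2 (-0.62), Rars (-0.20), Wars2 (-1.11) and Yars (-0.27). In the mock with centring they were Cars2 (-0.48), Sars2 (-1.09), Tars (-0.91), Wars2 (-1.27) and Yars (-0.07). With equal totals they were Cars2 (-0.66), Iars (-0.19), Sars (-0.13), Sars2 (-1.26), Tars (-1.11), Wars2 (-1.46) and Yars (-0.27), and without Lars2 in the totals Cars2 (-0.12), Sars2 (-0.74), Tars (-0.50) and Wars2 (-0.87).

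Between the inputs, 3 were at least 2-fold higher with a pseudocount of 5, against 7.92% of all transcripts. With a minimum value of 5 the count was 6, against 36%, and with at least 20 reads 1, against 24.9%. With equal totals 7 were at least 2-fold lower (27.4% of all transcripts were), as were 7 without Lars2 (27.6%). For the specific enrichment, a pseudocount of 5 left 3 higher, against 14% of all transcripts, and 3 lower, against 8.29%. The share of the synthetases, taken without Lars2, was 0.323% in the mutant IP, 0.398% in the mock IP, 0.127% in the mutant input and 0.16% in the mock input. Other causes of these differences were not tested. Of all recomputed values, 86 summary values kept their size class and 41 did not; of single transcripts 849 stayed, 88 shifted in size and 30, at least 2-fold apart in the deposited values, turned in sign. Input depth limits the rest, with a median of 4.5 reads per synthetase in the mutant input and 5 in the mock input.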

Other observations

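For 11 amino acids both a mitochondrial and a cytosolic enzyme were measured as separate genes. This pairing was chosen after the values were seen. The ratio of mutant IP over mock IP was higher for the mitochondrial enzyme in 7 pairs and for the cytosolic enzyme in 4. The ratios of the mitochondrial and the cytosolic enzyme lay furthest apart, with the mitochondrial one higher, for Hars2 and Hars (25 and 0.576), Mars2 and Mars (2.30 and 0.754) and Cars2 and Cars (3.37 and 1.25), and in the other direction for Rars2 and Rars (0.556 and 2.21) and Nars2 and Nars (0.764 and 2.06). Rars2 rests on 6 and 10 reads, and its interval (0.166 to 1.69) overlapped that of Rars (1.34 to 3.78). The intervals of the other pairs named here did not overlap, but these pairs were picked as the furthest apart. The pairs share their libraries and were not tested.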
